A study of Homo sapiens with 6 samples.

Results

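Cholesterol and fatty acid synthesis genes were followed across RNA-seq libraries labelled MKN45, an established line from a human gastric cancer. The members were 37 genes of the gene table, matched by symbol, out of 11658 genes in all. Of these, 20 formed the cholesterol arm, covering the enzymes between HMGCS1 and DHCR7 with their regulators INSIG1 and SREBF2 and the sterol carrier STARD4. The other 17 formed the fatty acid arm, covering acetyl-CoA and malonyl-CoA supply, the synthase, desaturases, elongases and the entry into glycerolipids, with the regulator SREBF1. Libraries T1 to T3 came from cells given an shRNA, a hairpin that the cell cuts into a small interfering RNA, against tcons_00001221, and libraries C1 to C3 from cells given a negative control shRNA (3 each). Both groups were the same line, grown in DMEM with serum. The sources used here do not give the number of hairpins, the time after transfection or whether separate cultures were used, and p-values therefore measure only the spread between these libraries.

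Cells make cholesterol from acetyl-CoA through mevalonate, isoprenoids, squalene and lanosterol, and make fatty acids from acetyl-CoA and malonyl-CoA on a single large synthase. Both routes are controlled by the sterol regulatory element-binding proteins (SREBPs), membrane-bound transcription factors that are held in the endoplasmic reticulum by INSIG proteins when sterols are plentiful and are cut free when sterols are scarce. SREBF2 encodes the form best known for sterol genes and SREBF1 the form best known for fatty acid genes. Proliferating cancer cells are known for making much of their own lipid.

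The deposited unit was FPKM, a fragment count divided by transcript length and by the library's mapped total, which allows levels of different genes to be set side by side. The summed FPKM of all genes was 186226 to 192101 per library, and libraries correlated at Pearson's r of 0.982 to 0.986 across genes. Because read depth is unknown, values carry no counting error, and the targeted transcript was not analysed here, so its level could not be used to check the labels. Of 17 epithelial markers 9 were among the genes analysed, with KRT18 at 53.2 to 63.4 FPKM and EPCAM at 5.96 to 7.92 FPKM, but CDH1 and KRT19 were not. Of 18 gastric and intestinal markers 6 were analysed, led by MET (77.0 to 88.5 FPKM), MUC13 and MUC1, while TFF1 (0.420 to 1.57 FPKM) and GKN1 (0.183 to 1.452 FPKM) were low and VIL1 and CEACAM5 were not analysed. Of 17 mesenchymal markers 11 were analysed, with VIM at 179 to 209 FPKM and COL5A1 at 219 to 275 FPKM, both above every epithelial marker. The identity of the line was not tested. Of 10 blood and immune markers, CD68 alone was analysed, and of 8 endothelial markers TEK alone, under 1 FPKM in every library.

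No member passed the threshold. The test was limma on log2(FPKM + 1), with p-values adjusted over all 10675 genes that reached 1 FPKM in 3 or more libraries and a threshold of 0.05. It called 0.749% of genes (80), of which 57 were higher and 23 lower in target shRNA libraries, and 0 of the 35 members tested. At an unadjusted p under 0.05, 2 members were higher, where 11.4% of all genes were, and 8 were lower, where 4.71% of all genes were. The 2 members not tested, MVK and LPIN1, stayed under 1 FPKM in every library. Every other member but ACACB reached 1 FPKM in all 6 libraries. The median fitted difference, target minus control, was -0.06 (log2) over the cholesterol arm and -0.000215 over the fatty acid arm, against 0.03 over all genes tested. It was negative in 23 of the 35 members, against 4141 of the 10675 genes tested.

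**Figure D1:**
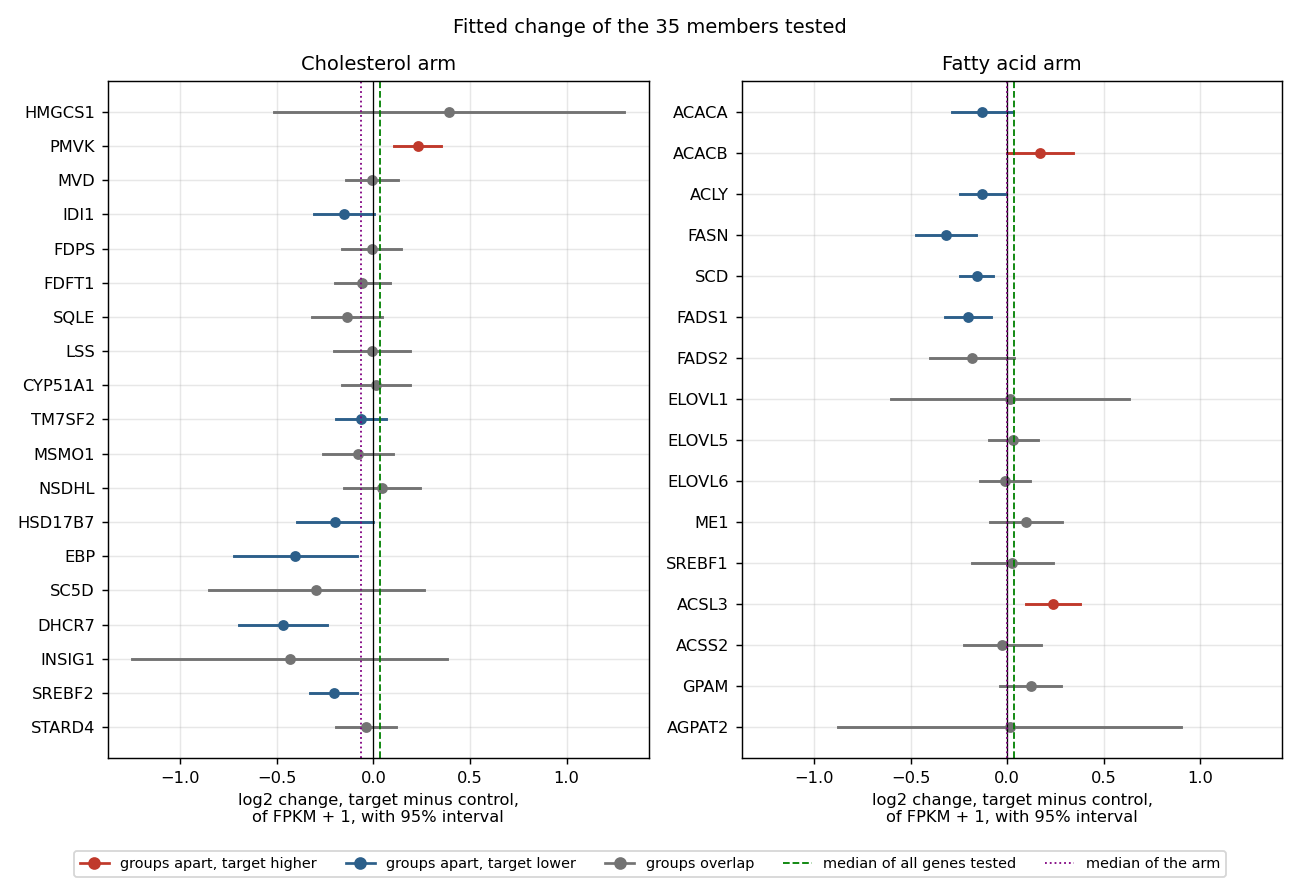
Fitted log2 difference, target minus control, of FPKM + 1 (x axis) for each of the 35 members tested, with its unadjusted 95% interval as a line. Red and blue mark members whose libraries did not overlap (higher and lower in target), grey those that overlapped, and all differences lay between -0.47 and 0.39.

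The 6 libraries could limit the size of a difference for most members. On the log2(FPKM + 1) scale, the unadjusted 95% interval lay within 1 log2 unit on either side of 0 for 33 of the 35. HMGCS1 and INSIG1 had intervals reaching beyond 1 log2 unit. For 28 members the interval lay within 1.5-fold of FPKM + 1, which is a looser limit on FPKM itself for low members. With a pseudocount of 0.01 the fitted difference was -0.34 for HSD17B7 and 0.30 for ACACB, against -0.20 and 0.17 as reported. In data simulated from these libraries the same test recovered 25.6% of genes raised by 25% or lowered by the same factor, 60.4% of those changed 1.5-fold and 80.8% of those changed 2-fold, so differences of the size seen in most members would usually not be called.

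Although no member passed, 11 of the 35 had every target shRNA library below every control shRNA library, where 7.18% of all genes did (766). Another 3 had every target library above every control library, where 16.6% of all genes did (1768), and the other 21 overlapped. The 11 lower members were DHCR7, EBP, SREBF2, HSD17B7, IDI1 and TM7SF2 in the cholesterol arm and FASN, SCD, FADS1, ACLY and ACACA in the fatty acid arm. Their mean FPKM differed by -33.8% (DHCR7) to -6.95% (TM7SF2). The 3 higher members were PMVK, ACSL3 and ACACB, by 18.04% to 22.98%. With libraries rescaled to equal medians, 12 members were lower and 3 higher without overlap, where 11.3% of all genes were in each direction. With gene values summed from their listed transcripts, 7 of 37 were lower and 4 higher, where 6.68% and 13.2% of all genes were. Because the members were chosen with earlier results of these data known, these counts describe the libraries and no test stands behind them. In bulk RNA, fewer cells of a kind and less RNA per cell cannot be told apart.

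**Figure D2:**
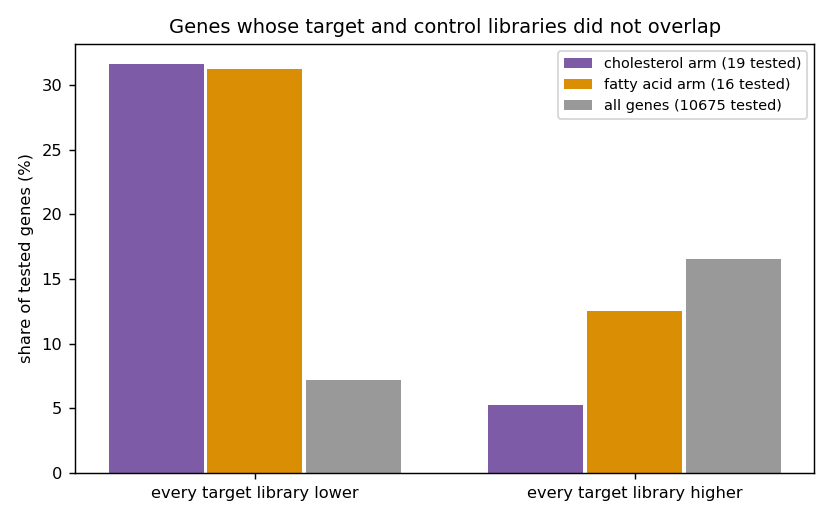
Share of tested genes (y axis, %) whose target and control libraries did not overlap, for the cholesterol arm (19 tested), the fatty acid arm (16 tested) and all genes (10675 tested). With every target library lower stood 6 cholesterol and 5 fatty acid members, against 7.18% of all genes. With every target library higher stood 1 and 2, against 16.6% of all genes.

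Marker sums of other cell types were compared beside these counts. The 11 mesenchymal markers summed to 465 to 489 FPKM in target shRNA libraries and 528 to 550 FPKM in control libraries. The highest of them were COL5A1 (means of 221 in target and 260 FPKM in control libraries) and VIM (187 and 203 FPKM). Of 10 tested, 0 were called, 3 were lower in every target library and 0 higher. The 9 epithelial markers summed to 165 to 172 FPKM in target libraries and 182 to 188 FPKM in control libraries. Of 9 tested, 0 were called, 2 were lower in every target library and 1 higher. Of all genes, 0.749% were called, 7.18% were lower in every target library and 16.6% higher. CLDN4, a tight junction claudin, measured 10.6, 0.0586 and 0.175 FPKM in target libraries, against 10.96, 10.03 and 10.63 FPKM in control libraries. CD68 measured 9.59 to 12.4 FPKM in target libraries and 12.5 to 15.2 FPKM in control libraries, and the 6 gastric and intestinal markers summed to 208 to 214 FPKM in target libraries and 206 to 219 FPKM in control libraries. The part of these markers in the members' lower values was not tested.

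The promoters of 4 lower members are shown because SREBPs and their partner NF-Y act at such sequences. SREBF2, DHCR7, EBP and SCD were picked with their values known. Each window runs from 250 bases before to 50 bases after the RefSeq start on GRCh38.p14, read 5′ to 3′ along the gene's strand: SREBF2 at chr22:41832855-41833154 (plus strand), DHCR7 at chr11:71448344-71448643 (minus strand), EBP at chrX:48521558-48521857 (plus strand) and SCD at chr10:100346983-100347282 (plus strand). Capitals mark the sterol element, searched only as TCACNCCAC (N, any base), and the CCAAT box, which reads ATTGG where it lies on the other strand.
SREBF2: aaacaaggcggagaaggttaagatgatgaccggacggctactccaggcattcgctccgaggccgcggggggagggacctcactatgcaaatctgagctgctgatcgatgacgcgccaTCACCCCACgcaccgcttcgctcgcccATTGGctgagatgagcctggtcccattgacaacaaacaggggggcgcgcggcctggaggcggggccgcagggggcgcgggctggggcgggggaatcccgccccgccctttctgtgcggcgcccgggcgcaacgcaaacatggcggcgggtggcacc
DHCR7: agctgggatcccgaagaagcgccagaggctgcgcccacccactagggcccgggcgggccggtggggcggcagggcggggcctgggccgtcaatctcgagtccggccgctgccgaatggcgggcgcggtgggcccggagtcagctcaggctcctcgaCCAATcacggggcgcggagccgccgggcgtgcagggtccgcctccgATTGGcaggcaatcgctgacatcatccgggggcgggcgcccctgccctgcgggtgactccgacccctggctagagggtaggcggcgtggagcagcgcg
EBP: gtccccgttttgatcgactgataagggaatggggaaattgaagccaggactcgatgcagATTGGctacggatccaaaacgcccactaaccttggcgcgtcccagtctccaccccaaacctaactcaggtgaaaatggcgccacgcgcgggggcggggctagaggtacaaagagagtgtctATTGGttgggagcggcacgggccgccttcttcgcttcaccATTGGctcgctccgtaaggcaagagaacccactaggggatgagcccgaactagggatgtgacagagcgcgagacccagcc
SCD: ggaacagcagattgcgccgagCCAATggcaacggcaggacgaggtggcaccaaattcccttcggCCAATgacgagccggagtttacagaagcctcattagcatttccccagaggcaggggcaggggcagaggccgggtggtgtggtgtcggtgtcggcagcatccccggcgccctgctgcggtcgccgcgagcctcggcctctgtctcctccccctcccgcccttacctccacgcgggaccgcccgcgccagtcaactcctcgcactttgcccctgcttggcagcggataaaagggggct
Only the SREBF2 window of these 4 held a match to those sterol element letters, at position -133 from the start, with a CCAAT box at -106. DHCR7 held 2 CCAAT boxes, EBP 3 and SCD 2.

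Windows of this length were available for 34 of the 37 members, all but FASN, FDFT1 and SQLE. On either strand, the sterol element TCACNCCAC was in 1 of the 34 (2.94%), against 1.15% of all 27305 promoters and 1.14% of the 8302 promoters of tested genes. The E-box CACGTG was in 4 members (11.8%), against 7.43% of all promoters and 10.6% of those of tested genes. The CCAAT box was in 22 members (64.7%), against 35.7% and 36.97%. It was in 15 of 18 cholesterol members (83.3%) and 7 of 16 fatty acid members (43.8%). The sterol element and the CCAAT boxes did not overlap in the windows shown, and a match describes letters in a window, not binding. Sterol elements spelled otherwise or lying outside the window were not counted, so a window without a match does not show that a gene lacks one.

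Levels spanned a wide range. SCD was the most abundant member at a mean of 117 FPKM, LPIN1 the least at 0.658 FPKM, and the median member stood at 6.14 FPKM. A mean of 10 FPKM or more was reached by 16 members, 13 lay between 2 and 10, and 8 lay under 2.

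**Figure D3:**
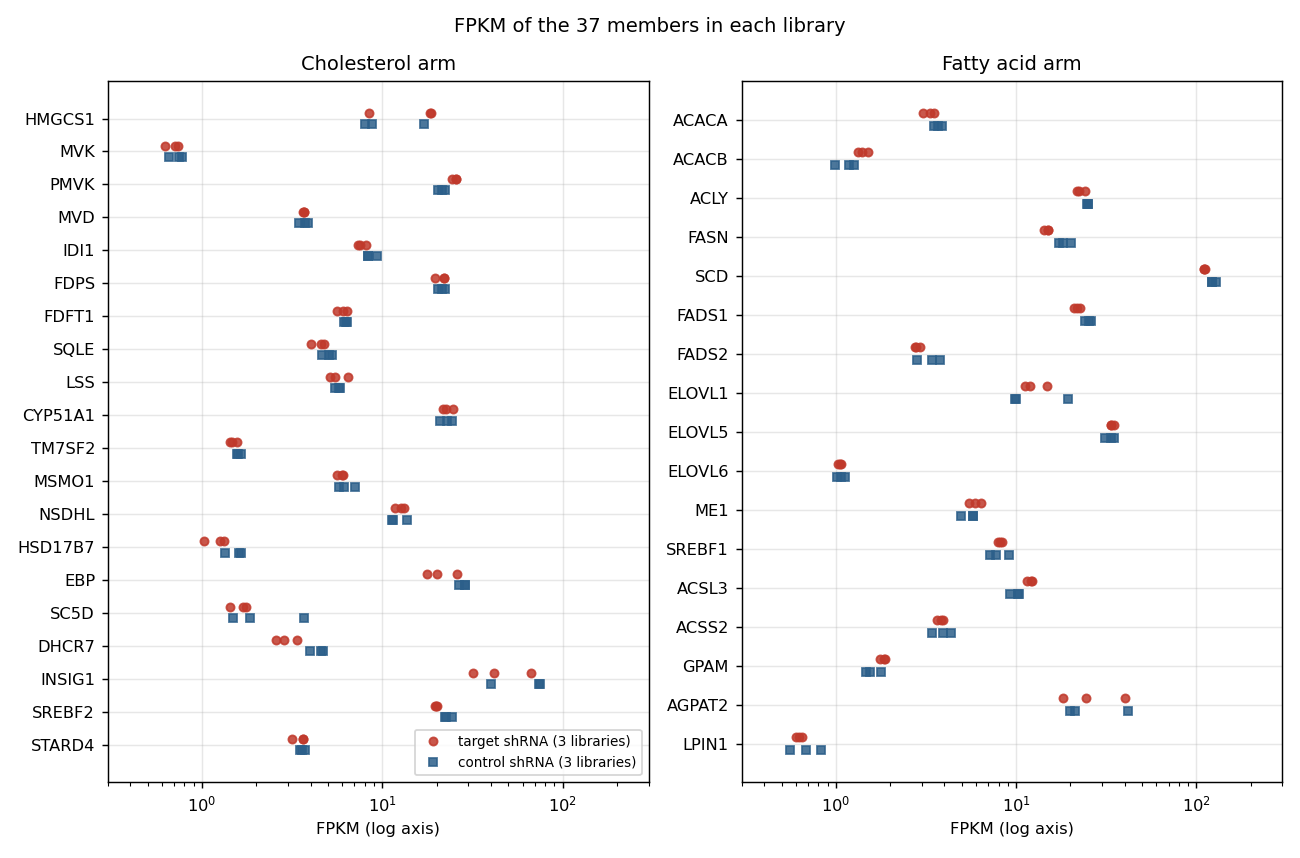
FPKM (log axis) of the 37 members in each of the 3 target shRNA libraries (red circles) and the 3 control shRNA libraries (blue squares). Mean levels ran from 0.658 FPKM (LPIN1) to 117 FPKM (SCD).

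The mevalonate and isoprenoid enzymes did not move together. HMGCS1, which makes the HMG-CoA that feeds the pathway, measured 18.3, 8.40 and 18.6 FPKM in target libraries, against 16.96, 8.76 and 8.01 FPKM in control libraries. Each group held both low libraries near 8 FPKM and higher ones, and the difference of 0.39 ± 0.38 (log2, SE) was no larger than the spread (adjusted p = 0.647). PMVK, which adds the second phosphate to mevalonate, measured 25.8, 25.6 and 24.3 FPKM in target libraries, against 21.5, 22.3 and 20.3 FPKM in control libraries. Every target library was above every control library, by 0.23 ± 0.05 (adjusted p = 0.124). IDI1, which isomerises the isoprenoid unit, measured 7.57, 7.34 and 8.11 FPKM in target libraries, against 9.33, 8.35 and 8.28 FPKM in control libraries, lower without overlap (adjusted p = 0.314). MVK, the first mevalonate kinase, lay at 0.625 to 0.778 FPKM. MVD, the decarboxylase, lay at 3.44 to 3.87 FPKM and FDPS, which makes farnesyl diphosphate, at 19.6 to 22.4 FPKM, both overlapping. FDPS has 8 pseudogenes named after it, and reads may be divided among them.

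The 3 steps from farnesyl diphosphate to lanosterol all overlapped between the groups. FDFT1, the squalene synthase, lay at 5.59 to 6.37 FPKM, and LSS, which closes the ring to lanosterol, at 5.11 to 6.43 FPKM. SQLE, the squalene epoxidase, measured 4.58, 4.01 and 4.76 FPKM in target libraries, against 5.26, 5.05 and 4.65 FPKM in control libraries.

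The enzymes that turn lanosterol into cholesterol held 4 of the 6 lower cholesterol members, with a median difference of -0.14 over 8. DHCR7 (chr11:71139239-71163914 on GRCh37, minus strand), which reduces 7-dehydrocholesterol to cholesterol, had the largest fitted difference of the tested members. It measured 2.85, 3.37 and 2.58 FPKM in target libraries, against 3.99, 4.71 and 4.60 FPKM in control libraries. The highest target library was below the lowest control library, and the difference was -0.47 ± 0.09 (adjusted p = 0.109). EBP (chrX:48379546-48387104, plus strand), the sterol isomerase, measured 25.97, 20.2 and 17.6 FPKM in target libraries, against 28.9, 28.7 and 26.8 FPKM in control libraries. T1 was close to the control libraries and T2 and T3 were lower, with a difference of -0.40 ± 0.13 (adjusted p = 0.240). HSD17B7, a ketosteroid reductase of the demethylation steps, measured 1.26, 1.33 and 1.03 FPKM in target libraries, against 1.599, 1.35 and 1.64 FPKM in control libraries (adjusted p = 0.307). T2 and C2 were almost equal, and 2 pseudogenes are named after this gene. TM7SF2, a sterol reductase, measured 1.56, 1.43 and 1.46 FPKM in target libraries, against 1.58, 1.56 and 1.64 FPKM in control libraries, with T1 and C2 almost equal (adjusted p = 0.605). Its single listed transcript pointed the other way, at 1.15, 1.17 and 0.976 FPKM in target libraries, against 0.768, 0.576 and 1.05 FPKM in control libraries (0.23, adjusted p = 0.799).

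The other lanosterol enzymes overlapped. CYP51A1, the lanosterol demethylase, measured 22.5, 24.7 and 21.8 FPKM in target libraries, against 24.5, 22.9 and 20.9 FPKM in control libraries (0.01, adjusted p = 0.944). NSDHL, a sterol dehydrogenase of the same steps, measured 12.6, 13.2 and 11.8 FPKM in target libraries, against 13.7, 11.5 and 11.4 FPKM in control libraries (0.05, adjusted p = 0.822). MSMO1, the methylsterol oxidase, lay at 5.62 to 7.02 FPKM. SC5D, the desaturase before DHCR7, measured 1.42, 1.76 and 1.69 FPKM in target libraries, against 1.84, 3.69 and 1.49 FPKM in control libraries. Library C2 stood above the other 5.

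Among the regulators, SREBF2 (chr22:42229083-42303312, plus strand) measured 19.6, 20.1 and 19.9 FPKM in target libraries, against 22.6, 22.2 and 24.5 FPKM in control libraries. The target libraries lay within 1 FPKM of each other and below every control library, with a difference of -0.21 ± 0.05 (adjusted p = 0.152). SREBF1 measured 8.13, 7.98 and 8.30 FPKM in target libraries, against 7.69, 7.16 and 9.18 FPKM in control libraries, overlapping (0.03, adjusted p = 0.906). INSIG1, the SREBP anchor and itself a known SREBP target, measured 66.6, 41.7 and 31.9 FPKM in target libraries, against 74.2, 74.9 and 39.9 FPKM in control libraries. Both groups spread widely and overlapped, with a difference of -0.43 ± 0.34 (adjusted p = 0.576). STARD4, which carries sterol between membranes, lay at 3.17 to 3.71 FPKM.

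In the fatty acid arm, FASN (chr17:80036214-80056208, minus strand), the synthase that builds palmitate, had the smallest adjusted p of the members. It measured 14.2, 15.0 and 15.0 FPKM in target libraries, against 17.4, 18.3 and 20.3 FPKM in control libraries. Every target library was below every control library, and the difference was -0.32 ± 0.06 (adjusted p = 0.108).

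The supply enzymes ahead of FASN pointed both ways. ACLY, which cuts citrate to acetyl-CoA, measured 22.2, 21.9 and 24.2 FPKM in target libraries, against 24.87, 24.99 and 25.07 FPKM in control libraries (-0.13, adjusted p = 0.279). ACACA, the cytosolic acetyl-CoA carboxylase, measured 3.03, 3.49 and 3.33 FPKM in target libraries, against 3.87, 3.67 and 3.51 FPKM in control libraries (adjusted p = 0.391). For both genes the nearest target and control libraries almost met. ACACB, the mitochondrial outer-membrane carboxylase, measured 1.39, 1.33 and 1.51 FPKM in target libraries, against 1.19, 0.991 and 1.27 FPKM in control libraries, higher without overlap (0.17, adjusted p = 0.315). ME1, which supplies NADPH, measured 6.36, 5.45 and 5.92 FPKM in target libraries, against 5.73, 4.94 and 5.73 FPKM in control libraries (0.10, adjusted p = 0.590). ACSS2, the acetate-activating enzyme, lay at 3.40 to 4.34 FPKM, and both overlapped.

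Of the desaturases, SCD (chr10:102106881-102124591, plus strand), which makes oleate, measured 110.4, 110.1 and 112.0 FPKM in target libraries, against 122.0, 121.7 and 128.0 FPKM in control libraries. Every target library was lower, with a difference of -0.16 ± 0.04 (adjusted p = 0.132). FADS1, the delta-5 desaturase of long polyunsaturated chains, measured 22.7, 21.7 and 21.0 FPKM in target libraries, against 25.4, 26.1 and 24.2 FPKM in control libraries, again without overlap (-0.20 ± 0.05, adjusted p = 0.158). FADS2, the delta-6 desaturase, measured 2.74, 2.93 and 2.78 FPKM in target libraries, against 3.79, 2.82 and 3.43 FPKM in control libraries, overlapping through C2 (adjusted p = 0.387). FADS1 and FADS2 lie on opposite strands and share 29694 bases in the deposited coordinates. Strandedness is not given in the sources used here, so reads of one may be counted in the other. FADS2 also shares 4265 bases with FEN1 on the same strand. FEN1 had means of 80.0 FPKM in target and 85.2 FPKM in control libraries, and whether its reads entered FADS2 was not tested.

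The elongases overlapped throughout. ELOVL5, which lengthens polyunsaturated chains, measured 33.4, 33.5 and 34.9 FPKM in target libraries, against 34.9, 33.5 and 31.2 FPKM in control libraries (0.03, adjusted p = 0.796). ELOVL1, for very long saturated chains, measured 11.98, 11.2 and 14.8 FPKM in target libraries, against 19.3, 9.94 and 9.90 FPKM in control libraries. ELOVL6, which lengthens palmitate, lay at 1.01 to 1.13 FPKM.

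The genes that activate fatty acids and place them on glycerol were not among the lower members. ACSL3, a long-chain acyl-CoA synthetase of the endoplasmic reticulum and lipid droplets, measured 11.4, 12.2 and 12.04 FPKM in target libraries, against 9.23, 10.3 and 10.3 FPKM in control libraries. Every target library was higher, by 0.24 ± 0.06 (adjusted p = 0.162). GPAM, the mitochondrial glycerol-phosphate acyltransferase, measured 1.85, 1.86 and 1.76 FPKM in target libraries, against 1.54, 1.79 and 1.47 FPKM in control libraries, which met at T3 and C2 (0.12, adjusted p = 0.426). AGPAT2, the next acyltransferase, measured 18.3, 24.5 and 40.3 FPKM in target libraries, against 19.9, 41.9 and 21.1 FPKM in control libraries, with 1 high library in each group (adjusted p = 0.990). LPIN1, a phosphatidate phosphatase, lay at 0.560 to 0.829 FPKM.

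**Figure D4:**
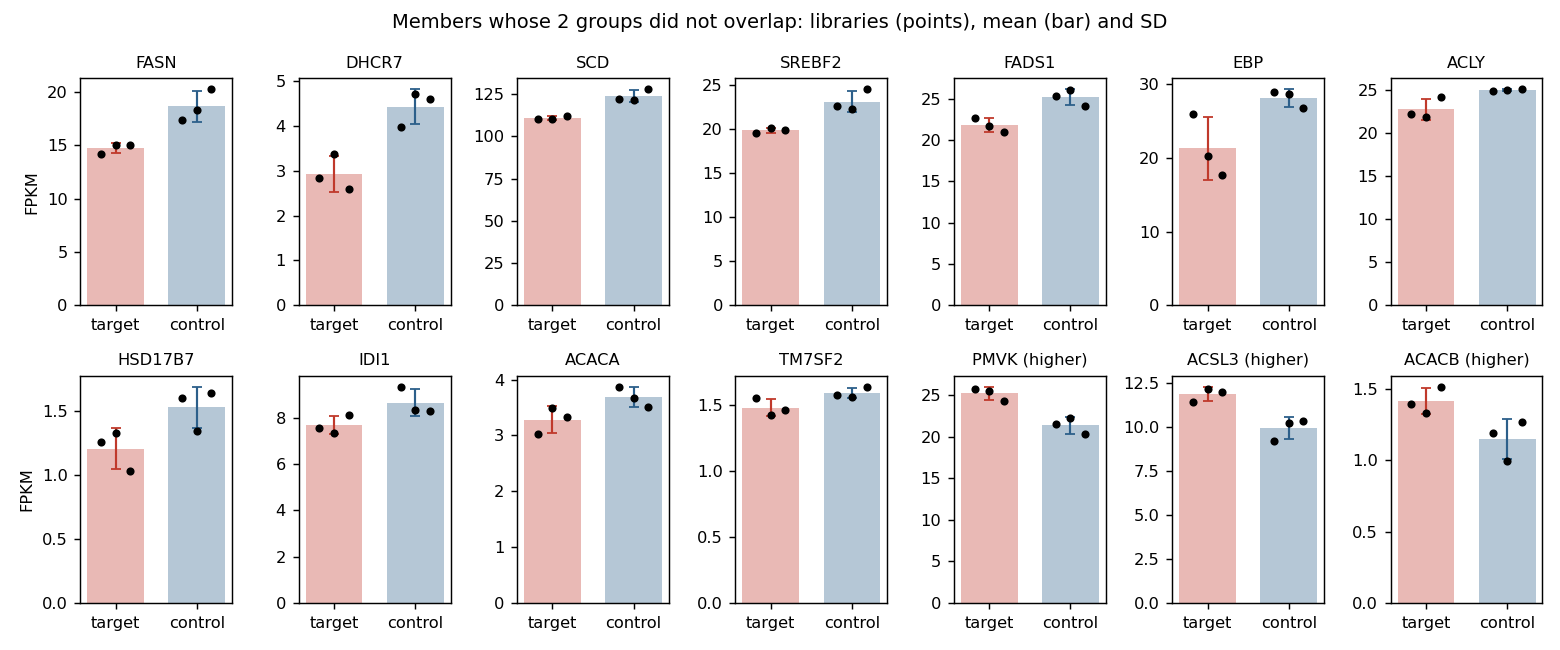
FPKM (y axes, from 0) of the 14 members whose target and control libraries did not overlap, with libraries as points, the mean as a bar and the SD as an error bar (n = 3 each). The 11 lower members are drawn first, from FASN, and the 3 higher ones last.

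The medians of the arms lay close together. The cholesterol median minus the fatty acid median was -0.06 (log2), and this gap was 0.0031 without T3, 0.024 without C2 and 0.012 without C3, all of opposite sign. The cholesterol arm summed to 230 ± 25.5 FPKM in target libraries and 253 ± 28.4 FPKM in control libraries (SD, n = 3 each). INSIG1, whose groups overlapped, contributed a mean of 46.7 FPKM to the first and 63.0 FPKM to the second. The fatty acid arm summed to 285 ± 15.8 FPKM in target libraries and 305 ± 6.77 FPKM in control libraries. Without SCD it summed to 174 ± 14.8 FPKM in target libraries and 182 ± 9.52 FPKM in control libraries. The most abundant genes thus weigh most on these sums. Both arms together were 0.272% of all FPKM in target libraries and 0.294% in control libraries.

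HMGCS1, INSIG1, SC5D, ELOVL1 and AGPAT2 varied widely between libraries of the same group. These 5 of the 35 tested ranged at least 1.5-fold within a group, where 14.7% of all genes ranged that far. For INSIG1, transcript INSIG1-001 followed the gene, at 75.2, 46.0 and 33.1 FPKM in target libraries and 84.5, 84.5 and 41.2 FPKM in control libraries. HMGCS1-003 stood at 12.2, 5.003 and 14.6 FPKM in target libraries and 12.4, 5.50 and 4.55 FPKM in control libraries, again tracking its gene. In SC5D the high library was C2, where SC5D-002 stood at 7.33 FPKM, against under 1 FPKM elsewhere. SC5D-004, the SC5D transcript of highest mean, was at 0 in C2 and at 1.46 to 3.22 FPKM in the other libraries. The SC5D gene value in C2 was 3.69 FPKM, so transcript values need not add up to the gene value. AGPAT2-002 stood at 22.9 FPKM in T3 and 27.2 FPKM in C2, and at 4.00 to 5.68 FPKM in the other libraries.

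**Figure D5:**
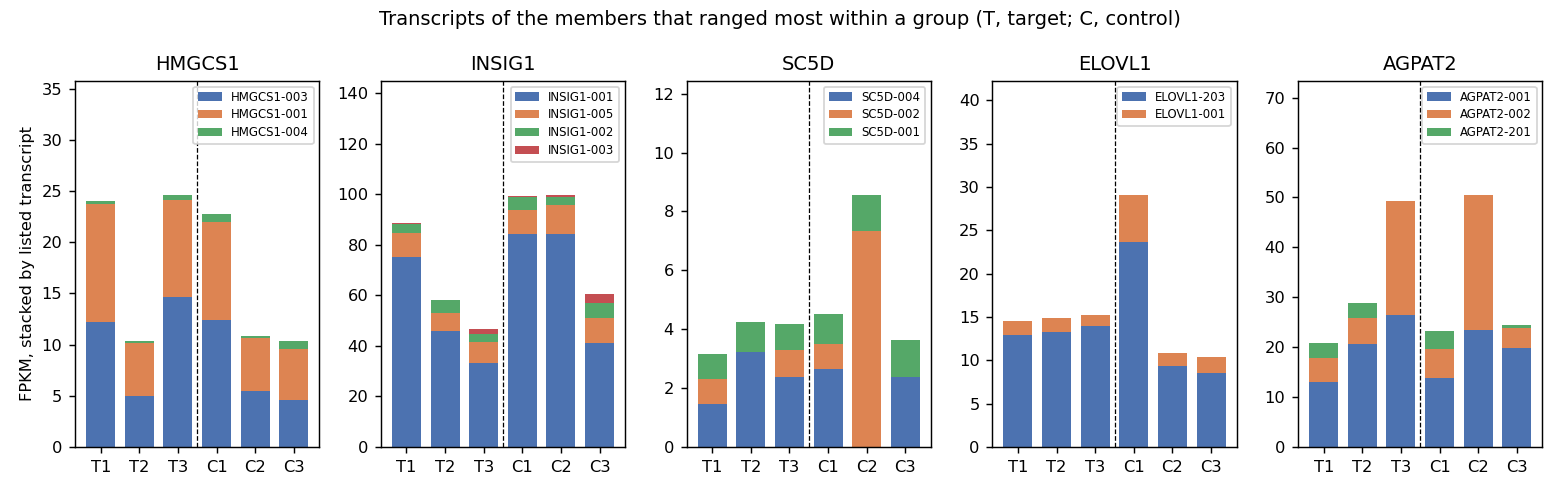
FPKM (y axes) stacked by listed transcript, in libraries T1 to T3 (target) and C1 to C3 (control), for HMGCS1, INSIG1, SC5D, ELOVL1 and AGPAT2. The high libraries differ from gene to gene, such as C2 for SC5D and C1 for ELOVL1 (19.3 FPKM at the gene level).

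Of 107 listed transcripts of the members 72 were tested, and limma called 0 of them, where it called 0.287% of all 20890 transcripts (60, with 0.148% higher and 0.139% lower). In simulated data the transcript test recovered 2.4% of transcripts changed 1.5-fold, 9.6% of those changed 2-fold and 32% of those changed 4-fold, so 0 calls says little about the members' transcripts. At an unadjusted p under 0.05, 2 were higher (4.20% of all) and 5 lower (3.20% of all). Groups did not overlap for 3 higher transcripts (9.12% of all) and 7 lower ones (6.07% of all). Among members with several listed transcripts, 11 kept the same leading transcript in all 6 libraries and 15 did not, and 29 of the 107 were at 0 in some library. NSDHL is an example: NSDHL-201 was at 11.6 FPKM in T2 and 9.70 FPKM in C3, and at 0.447 to 1.03 FPKM in the other 4, while the gene lay at 11.4 to 13.7 FPKM. FASN-001 stood at 14.8, 15.6 and 15.6 FPKM in target libraries and 18.1, 19.1 and 19.7 FPKM in control libraries (-0.29, adjusted p = 0.425). SREBF2-001 stood at 26.2, 27.5 and 27.2 FPKM in target libraries and 30.3, 30.1 and 34.9 FPKM in control libraries (adjusted p = 0.639). FADS1-001 stood at 47.4, 47.9 and 45.1 FPKM in target libraries and 54.4, 57.9 and 52.7 FPKM in control libraries (adjusted p = 0.477). Of the 11 lower members, the transcript of highest mean was also lower without overlap for 6, including these 3, and overlapped for 5 (DHCR7, EBP, ACLY, ACACA and TM7SF2). For ACLY-201 (0.31), ACACA-009 (0.34) and TM7SF2-001 (0.23) the fitted difference was positive. DHCR7-001 stood at 2.21, 3.22 and 1.39 FPKM in target libraries and 2.97, 3.81 and 4.56 FPKM in control libraries (adjusted p = 0.706). EBP-004 stood at 26.3, 19.4 and 16.7 FPKM in target libraries and 28.8, 25.7 and 27.9 FPKM in control libraries (adjusted p = 0.689). Of the 3 higher members, the leading transcript was higher without overlap for 1 (PMVK). Transcript and gene values come from the same reads.

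Other lipid genes were read from 9 further lists (SREBP processing, other sterol synthesis, isoprenoids, sterol transport, other fatty acid synthesis, acyl-CoA synthetases, glycerolipid synthesis, lipid droplets and fatty acid oxidation). Of their 141 tested genes, 1 was called higher (0.534% of all genes were) and 1 lower (0.215%). The lower one was PLIN3, a coat protein of lipid droplets, at 23.8, 24.1 and 21.1 FPKM in target libraries, against 49.8, 49.2 and 46.4 FPKM in control libraries (-1.04 ± 0.06, adjusted p = 0.0022). It was included because its difference was already known. The higher one was HSD17B8, a mitochondrial fatty acid synthesis reductase, at 10.2, 10.4 and 10.6 FPKM in target libraries, against 7.83, 7.42 and 7.21 FPKM in control libraries (0.43 ± 0.05, adjusted p = 0.023). That call did not hold when any 1 library was left out (adjusted p 0.050 to 0.113), with the replicate number as a block (0.186) or with gene values summed from transcripts (0.256). List medians lay between -0.04 and 0.06.

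Of the 141 tested genes in these 9 lists, 10 were lower in every target library (7.09%), where 7.18% of all genes were. Another 24 were higher in every target library (17.02%), where 16.6% of all genes were. Sterol transport held the largest lower share of the 9 lists, at 5 of 19 genes. These 5 included NPC1 at 10.5, 12.3 and 11.9 FPKM in target libraries, against 13.6, 13.9 and 13.8 FPKM in control libraries (adjusted p = 0.186). NPC1 moves cholesterol out of lysosomes. ABCA1, the cholesterol exporter, measured 1.73, 1.89 and 1.92 FPKM in target libraries, against 2.36, 2.37 and 2.20 FPKM in control libraries (adjusted p = 0.171). Of SREBP processing genes, MBTPS2, the site-2 protease that cuts SREBPs free, measured 7.47, 7.62 and 7.82 FPKM in target libraries, against 6.42, 6.73 and 6.37 FPKM in control libraries (adjusted p = 0.144). PDSS1, which builds the tail of coenzyme Q, measured 2.80, 2.67 and 2.74 FPKM in target libraries, against 1.88, 2.21 and 2.26 FPKM in control libraries (adjusted p = 0.165). None of these 4 passed the threshold, and the first pair was lower and the second higher without overlap.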

How the data were processed

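RNA-seq libraries of MKN45 cells were grouped by sample title into 3 target shRNA and 3 control shRNA libraries. The authors deposited FPKM per gene and per transcript, per the file headers, and both tables hold protein-coding features only. Positions are on GRCh37 (hg19), per the submitters' processing notes. Aligner, quantifier, annotation and strandedness: not given in the sources used here. Low values did not fall on steps of whole reads (at most 0.249% of low genes shared a ratio between 2 libraries), so depth is unknown.

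Values were analysed as log2(FPKM + 1) with limma 3.58.1 (trend) in R 4.3.3. Genes with at least 1 FPKM in at least 3 libraries were tested and p-values adjusted by Benjamini-Hochberg over all of them. Changes are target minus control, with moderated SEs. The log2(FPKM + 1) scale understates changes of low genes. The fit was tested on simulated data, where 5.26% of the gene calls and 7.56% of the transcript calls were false. Members named in full were those of smallest p in each direction and highest mean in each arm, with SREBF1, SREBF2 and INSIG1. Further members, and the transcripts and promoters shown, were chosen after their values were seen. The members and lists were chosen with earlier results of these data known. Python 3.11.15, pandas 2.3.3 and matplotlib 3.10.9 served for reading and drawing. Alternatives were other pseudocounts, filters, scalings, limma settings, a replicate block, leaving out each library, and, added after seeing the data, gene values summed from listed transcripts and non-overlap counts under other scalings.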

Additional observations from a re-analysis of the deposited data

How the results depend on the processing

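No member was called under any of the 16 alternatives, and no member transcript was. At an unadjusted p under 0.05 by limma, there were 8 to 13 members and 5 to 9 member transcripts, both directions together. As reported, 10 members passed that p, against 1719 of 10675 genes. Quantile normalization gave 13, against 1535 of 10675 genes, and leaving out T1 gave 8, against 1312 of 10675. Of all transcripts, 4.2% were higher and 3.2% lower at that p as reported. Calls over all genes, 80 as reported, were 52 among genes averaging 5 FPKM or more, 27 with gene values summed from transcripts (added after seeing the data) and 23 to 42 without any 1 library. Transcript calls, 60 as reported, were 39 with a pseudocount of 0.1, 15 with 0.01, 18 among those averaging 5 FPKM or more and 33 to 53 without any 1 library. Replicate numbers are shared between groups. Same-numbered libraries deviated together at correlations of -0.01 to 0.07, and differently numbered ones at -0.06 to 0.04. With 3 libraries per group such values cannot settle whether the samples were paired, and the main fit treats them as unpaired. With the replicate block, 10 genes and 0 transcripts were called (1264 transcripts at an unadjusted p under 0.05 by limma), and not every library correlated best with its own number. The other lipid lists went to 1 call with the replicate block, without any 1 library (1 to 1) and with transcript sums. PLIN3 was that call. Quantile normalization gave arm medians of -0.11 (cholesterol) and -0.038 (fatty acid). Without any 1 library the fatty acid median was -0.080 to 0.017 and the gap between the arms -0.095 to 0.024. With transcript sums 7 members were lower without overlap, where 6.68% of all genes were. Rescaling to equal medians left 12 lower and 3 higher (11.3% of all genes each way), and quantile normalization 15 and 2 (10.89% and 10.96%). Of 316 values of 20 named members 303 kept their direction and 13 reversed, all in members with differences near 0. SREBF1 was -0.00571 with quantile normalization, -0.0056 with median rescaling and -0.042 (without C2) to 0.117 without any 1 library, and 0.258 with transcript sums, against 0.03 as reported. AGPAT2 was -0.0225 with median rescaling and -0.286 to 0.344 without any 1 library, negative without T3, C1 or C3. CYP51A1 was -0.0201 with median rescaling, -0.00923 with transcript sums and -0.0423 to 0.0649 without any 1 library, negative without T2 or C3. ELOVL5 was -0.0028 with median rescaling and -0.0111 (without C3) to 0.0677 without any 1 library. AUP1, a lipid droplet list gene, was -0.40 with transcript sums, against 0.17 as reported. The causes were not tested.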
